A study of Mus musculus with 4 samples.

Results

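The enzymes described here write and erase methyl groups on histones and on DNA. The members were chosen by gene symbol from a fixed list of 39 genes, which holds Polycomb subunits, DNA methyltransferases, TET enzymes, histone methyltransferases and histone demethylases. All 39 were found among the 24537 genes of the table, and 35 passed a minimum mean of 1 FPKM across the 4 libraries, which 9810 genes passed in all. FPKM scales fragments by exon length and by the tags of the library, so it is a level per transcript length. The RNA came from CD8+ T cells of mice that bore B16-GP33 tumours, taken at day 21. B16 cells are an established line of mouse melanoma, and the GP33 epitope comes from a virus and is seen by CD8+ T cells. The 2 control libraries are labelled EV and the 2 others ACSS2NLS, the only difference between the groups that the labels give. The enzyme ACSS2 turns acetate into acetyl-CoA, and NLS usually stands for nuclear localisation signal. The strain, age and sex of the mice, any pooling of animals and how the cells came to carry ACSS2NLS are not given in the sources used here. No group carried ACSS2 without the signal, so its amount and its location cannot be told apart.

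Methylation of histone tails and of cytosine helps to set which genes a T cell can switch on. Polycomb repressive complex 2 (PRC2) places methyl groups on lysine 27 of histone H3, a mark of silenced genes, and KMT2 and SETD1 enzymes place them on lysine 4, a mark of promoters and enhancers. DNA methyltransferases silence naive and memory genes in effector and exhausted T cells, TET enzymes oxidise the methyl group and so help to remove it, and histone demethylases of the LSD1 and Jumonji families take methyl groups off lysines.

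Total tags lay between 46000000 and 49300000 per library (rounded to 100000). Acss2 was at 3.66 and 3.92 FPKM in the EV libraries and at 80.7 and 86.3 FPKM in the ACSS2NLS libraries, as the labels say. All 8 markers of CD8+ T cells were measured, with summed levels of 1830 to 2205 FPKM in EV and 1603 to 2042 FPKM in ACSS2NLS. Of the 8, 1 had a higher mean in ACSS2NLS, where 53.2% of all genes tested did. Transcripts of other cells were present and differed between libraries. The 16 myeloid markers summed to 180 and 949 FPKM in EV replicates 1 and 2 and to 430 and 1441 FPKM in ACSS2NLS replicates 1 and 2, with 13 of 16 higher in mean in ACSS2NLS. The 9 melanoma markers summed to 6.51 and 40.2 FPKM in EV and to 13.0 and 142 FPKM in ACSS2NLS, with 9 of 9 higher in mean. No marker of either list was at 0 in every library. Each list of markers of further cell types summed to at most 17.9 FPKM per library. Higher in mean in ACSS2NLS were 5 of 6 stromal and endothelial, 3 of 3 B cell and 2 of 2 CD4 and regulatory T cell markers. The same held for 2 of 4 red blood cell markers and for 0 of 1 NK cell marker. The methylation enzymes are expressed in most cell types, and the part of these other transcripts in the results below was not tested. In such bulk RNA, fewer cells of a type and less RNA per cell cannot be told apart.

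No methylation enzyme gene passed the test in either direction in ACSS2NLS. The groups were compared with limma-trend on log2(FPKM + 1), and the p-values were adjusted over all 9810 genes (Benjamini-Hochberg, threshold 0.05). Of the 35 measured members, 0 passed upward and 0 downward, against 0.0204% and 0% of all genes tested. At an unadjusted p under 0.05, too, 0 members were higher and 0 lower, where 3.1% of all genes were higher and 2.87% lower. In 3 alternative fits 1 of the 35 did have such an unadjusted p, Kdm7a in 2 of them and Ehmt2 in the third. The smallest adjusted p of a member was 0.81. The intervals bound how large a change the data leave room for. The 95% interval of the difference lay between -1 and 1 on the log2(FPKM + 1) scale for 35 of 35 members, against 91.7% of all genes, and within the logarithms of a 1.5-fold change on the same scale for 21 of 35, against 58.8% of all genes. The added 1 narrows the differences of genes near 1 FPKM. With a pseudocount of 0.1 the intervals of 31 members stayed between -1 and 1, and those of Tet3, Kmt2b, Kmt2d and Kdm7a reached past a limit. With 1 library left out in turn and the pseudocount of 1, 33 to 35 intervals stayed between them. A difference inside these intervals could not be resolved, and the missed threshold does not show that levels were equal.

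**Figure D1:**
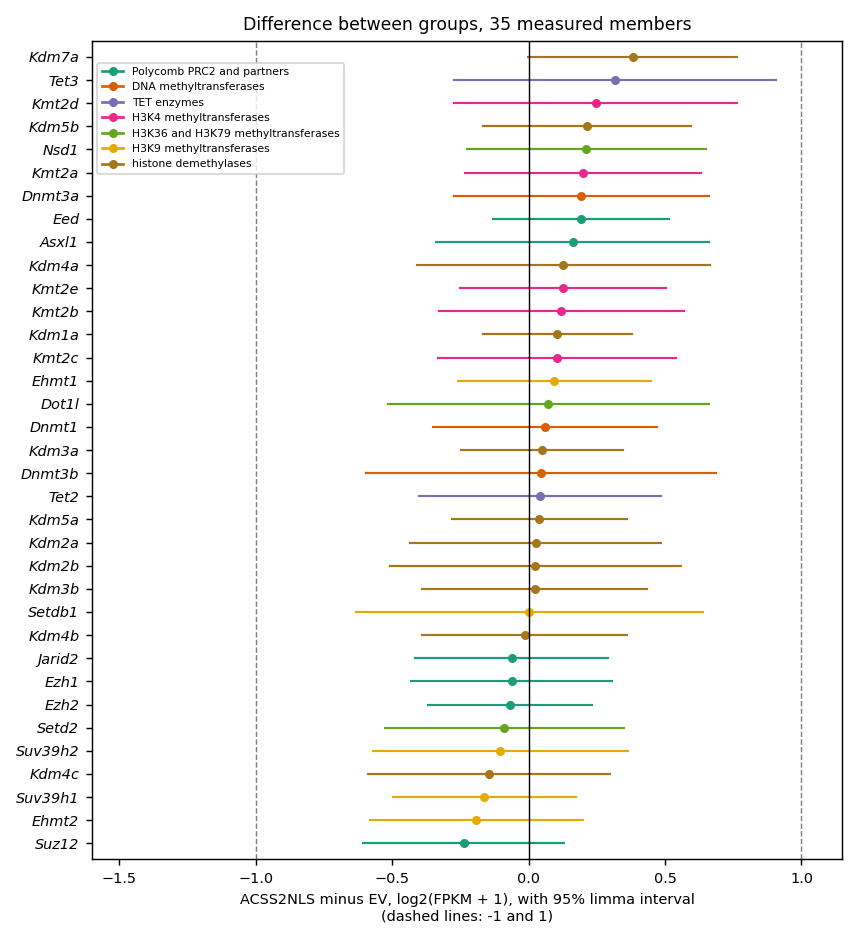
Difference between the ACSS2NLS and EV means of each measured member on the log2(FPKM + 1) scale (horizontal axis), with its 95% limma interval (line) and n = 2 libraries per group, coloured by role and ordered by size. All 35 intervals include 0 and lie between the dashed lines at -1 and 1.

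The promoter windows of 2 members are shown first, that of Kdm7a because it had the largest difference between the groups, and that of Dnmt1 because it was the most abundant member. Each is the 250 bases before the transcription start of the deposited row, from RefSeq (GRCm38.p6, the assembly of mm10), 5′ to 3′ on the strand of the gene, with CpG dinucleotides, the substrate of the DNA methyltransferases, in capitals. Kdm7a lies at chr6:39206774-39207023 (minus strand) and Dnmt1 at chr9:20959889-20960138 (minus strand).
Kdm7a: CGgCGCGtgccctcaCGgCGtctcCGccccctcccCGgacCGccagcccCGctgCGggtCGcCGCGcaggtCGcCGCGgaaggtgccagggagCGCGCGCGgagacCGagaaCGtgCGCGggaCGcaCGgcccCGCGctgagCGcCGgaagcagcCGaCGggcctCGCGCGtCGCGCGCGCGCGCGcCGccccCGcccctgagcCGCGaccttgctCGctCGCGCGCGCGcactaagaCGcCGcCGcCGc
Dnmt1: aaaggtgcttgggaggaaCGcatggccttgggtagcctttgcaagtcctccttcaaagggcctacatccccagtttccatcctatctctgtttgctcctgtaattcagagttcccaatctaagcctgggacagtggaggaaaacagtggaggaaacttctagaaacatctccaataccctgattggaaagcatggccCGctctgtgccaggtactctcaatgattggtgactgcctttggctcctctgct
The Kdm7a window held 56 CpG, more than 99.98% of the windows of genes tested, and the Dnmt1 window held 2. A window with the start of the deposited row was found for 23 of the 39 members and for 6257 of the genes tested. At least 10 CpG were present in 21 of the 23 members' windows (91.3%) and in 76.7% of those of all genes tested, with medians of 23 and 16. Besides Dnmt1, the exception was Kdm4c with 0. The rows of Dnmt1 and Kdm4c, like those of the other members, each follow a single transcript. The deposited values do not show which start the cells used.

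Dnmt1, the maintenance methyltransferase that copies DNA methylation after replication, had the highest level of all members in every library. It was at 33.1 and 36.8 FPKM in EV and at 31.7 and 41.9 FPKM in ACSS2NLS. The groups overlapped, with a log2 change of 0.060 ± 0.16 (SE, n = 2 per group; adjusted p = 0.96). The core subunits of PRC2 followed in the order Suz12, Eed and Ezh2, at means of 23.7, 22.0 and 19.9 FPKM over the 4 libraries. Only 5 of the 38 neighbouring pairs in the order of mean level had ranges that lay apart. Dnmt1 above Suz12 and Ezh2 above Kdm1a were among them. Overlapping ranges do not show that neighbours were level, because both genes are read in the same libraries. Kdm2b exceeded Asxl1 in all 4 libraries although their ranges overlapped, whereas Ehmt2 exceeded Kdm2b in only 1. At the low end, Kdm6b, Setd1a, Setd1b and Tet1 had a mean under 1 FPKM.

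**Figure D2:**
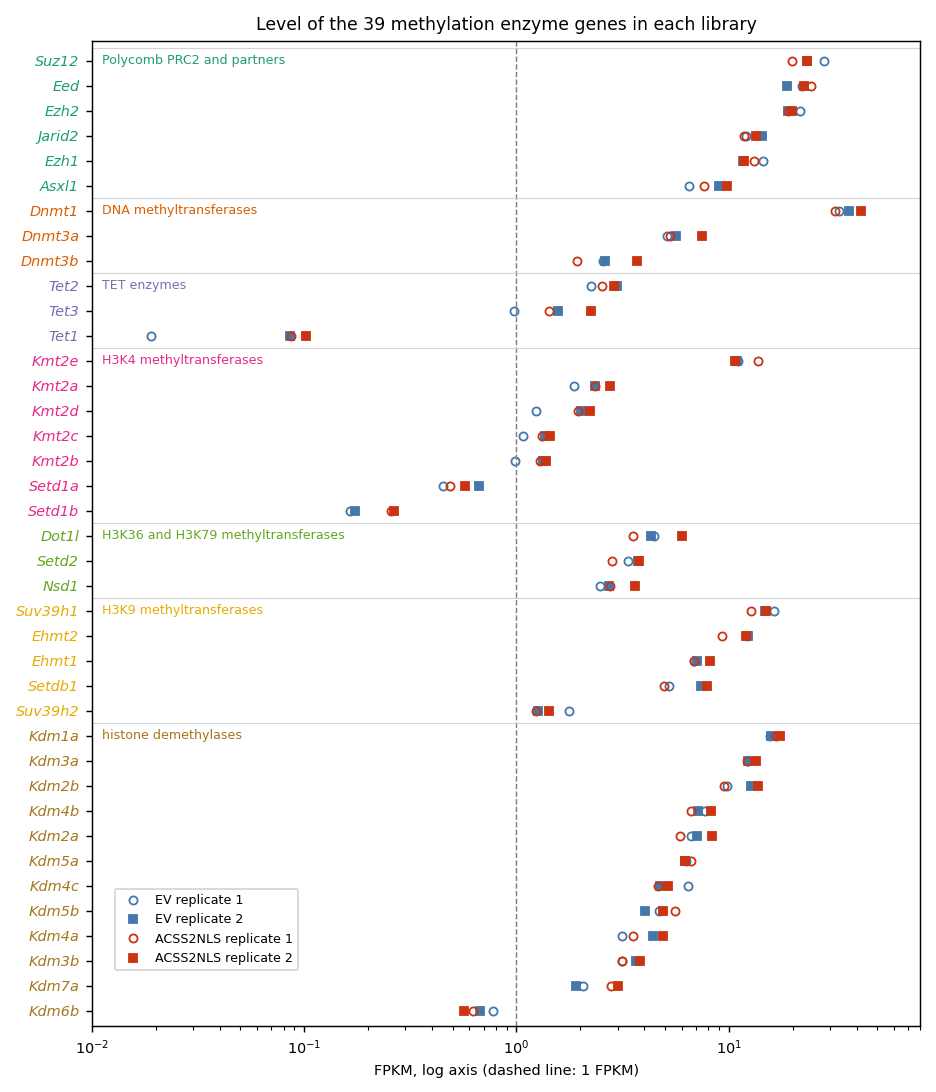
Level of each of the 39 members (rows, grouped and coloured by role) in FPKM on a log axis, with 1 point per library. Dnmt1 stands highest in all 4 libraries, Tet1 lowest, and the points of the groups intermingle for most genes.

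Among the Polycomb genes, 2 of 6 had a higher and 4 a lower mean in ACSS2NLS, with a median log2 change of -0.062 against 0.015 for all genes tested. Ezh2 (NM_001146689; mm10 chromosome 6, 47530274 to 47595030, minus strand) encodes the main catalytic subunit of dividing cells. It was at 21.7 and 19.1 FPKM in EV and at 19.0 and 19.8 FPKM in ACSS2NLS, and the groups overlapped (log2 change -0.067 ± 0.12, 95% interval -0.37 to 0.23). Ezh1, the less active paralog of resting cells, was at 14.6 and 11.7 FPKM in EV and at 13.1 and 11.9 FPKM in ACSS2NLS (log2 change -0.062 ± 0.15). Ezh2 therefore exceeded Ezh1 per length in each library, by 1.49 and 1.62 times in EV and by 1.44 and 1.67 times in ACSS2NLS, ratios that overlapped.

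Suz12 and Eed, the 2 subunits that EZH2 needs to be active, leaned in opposite directions. Suz12 (NM_001163018; chromosome 11, 79993106 to 80034123, plus strand) was at 28.1 and 23.3 FPKM in EV and at 19.9 and 23.3 FPKM in ACSS2NLS, with 1 library of each group at nearly the same level. Its difference was the lowest of any member (-0.24 ± 0.15 on the log2 scale, adjusted p = 0.822). Eed (NM_021876; chromosome 7, 89954654 to 89980976, minus strand) reads the mark that PRC2 places. It was at 22.2 and 18.9 FPKM in EV and at 24.4 and 22.7 FPKM in ACSS2NLS, with both ACSS2NLS libraries above both EV libraries (log2 change 0.19 ± 0.13, adjusted p = 0.825). The ratio of Suz12 to Eed was 1.27 and 1.23 in EV and 0.817 and 1.03 in ACSS2NLS. Jarid2, which guides PRC2 to chromatin, and Asxl1, a partner of the BAP1 deubiquitinase that opposes Polycomb repressive complex 1, had log2 changes of -0.061 ± 0.14 and 0.16 ± 0.20.

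The de novo DNA methyltransferases were lower than Dnmt1. Dnmt3a, which methylates progenitor genes in differentiating CD8+ T cells, was at 5.14 and 5.65 FPKM in EV and at 5.28 and 7.49 FPKM in ACSS2NLS (log2 change 0.19 ± 0.19). Dnmt3b was at 2.56 and 2.62 FPKM in EV and at 1.92 and 3.71 FPKM in ACSS2NLS (0.046 ± 0.26), so the ACSS2NLS libraries stood on either side of the EV libraries. The library with the highest Dnmt1, Dnmt3a and Dnmt3b was in each case ACSS2NLS replicate 2, which also had the highest sums of myeloid and melanoma markers. The lowest libraries did not all follow these sums, which were smallest in EV replicate 1. Dnmt3a was lowest there, but Dnmt1 and Dnmt3b were lowest in ACSS2NLS replicate 1.

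Tet2 was the most abundant TET gene. Loss of this enzyme is known to favour memory CD8+ T cells. It was at 2.25 and 2.98 FPKM in EV and at 2.52 and 2.89 FPKM in ACSS2NLS (log2 change 0.042 ± 0.18). Tet3 was at 0.976 and 1.57 FPKM in EV and at 1.42 and 2.25 FPKM in ACSS2NLS, with overlapping groups and the highest upper limit of any member's interval (log2 change 0.32 ± 0.24, 95% interval -0.27 to 0.91). Tet1 was nearly undetected, at 0.019 and 0.086 FPKM in EV and at 0.087 and 0.102 FPKM in ACSS2NLS, which came to 12 to 68 tags per library.

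The enzymes that write H3K4 methylation, counted without Kmt2e, had a higher mean in ACSS2NLS in 4 of 4 measured genes. Of all genes tested, 53.2% did. The median log2 change was 0.16 (0.13 with Kmt2e), but 0 passed at an unadjusted p under 0.05. Kmt2e, a KMT2 relative that binds methylated H3K4, was by far the most abundant KMT2 gene here per length. It was at 11.0 FPKM in each EV library and at 13.7 and 10.7 FPKM in ACSS2NLS, so its groups overlapped (log2 change 0.13 ± 0.15). Of its exon bases over all isoforms in GENCODE M21, 972 overlap Srpk2 on the opposite strand. Reads there cannot be assigned with certainty, and whether these bases lie in the counted transcript was not checked. Kmt2a, the founding enzyme of the family, was at 1.87 and 2.33 FPKM in EV and at 2.34 and 2.77 FPKM in ACSS2NLS, so the groups lay just apart, with a difference about as large as the gap inside each of them (log2 change 0.20 ± 0.17). Kmt2d, which marks enhancers together with Kmt2c, was at 1.23 and 2.01 FPKM in EV and at 1.95 and 2.21 FPKM in ACSS2NLS (0.25 ± 0.21). Kmt2b and Kmt2c had means of 1.25 and 1.30 FPKM and log2 changes of 0.12 ± 0.18 and 0.11 ± 0.17. These 2 genes, Kmt2a and Kmt2d were lowest in EV replicate 1, the library with the smallest sums of myeloid and melanoma markers. Kmt2e was instead lowest in ACSS2NLS replicate 2, the library with the largest sums.

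Setd1a and Setd1b, the enzymes of bulk H3K4 methylation, lay under the filter. Setd1a was at 0.453 and 0.663 FPKM in EV and at 0.485 and 0.571 FPKM in ACSS2NLS. Of its exon bases over all isoforms, 3523 are shared with the gene model Gm49388 on the same strand. Setd1b was at 0.165 and 0.174 FPKM in EV and at 0.257 and 0.264 FPKM in ACSS2NLS, on 67 to 112 tags per library. With no filter on low values, its log2 change was 0.11 ± 0.034 (limma-trend, adjusted p = 0.865), the one of 39 members with an unadjusted p under 0.05 in that fit, which 5.65% of its 17704 genes had.

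None of the enzymes of lysines 36 and 79 passed the test. Setd2, the main enzyme of trimethylation at lysine 36, was at 3.37 and 3.74 FPKM in EV and at 2.83 and 3.78 FPKM in ACSS2NLS (log2 change -0.088 ± 0.17). Nsd1, which places the dimethyl mark there, was at 2.47 and 2.73 FPKM in EV and at 2.75 and 3.63 FPKM in ACSS2NLS. Its groups did not overlap, but the nearest libraries differed by little (log2 change 0.21 ± 0.18, adjusted p = 0.849). Dot1l, the enzyme of lysine 79, was at 4.45 and 4.32 FPKM in EV and at 3.55 and 6.06 FPKM in ACSS2NLS, on either side of the EV libraries (0.073 ± 0.23).

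Of the H3K9 methyltransferases, which build heterochromatin, 2 had a higher and 3 a lower mean. Suv39h1, which silences memory genes in effector CD8+ T cells, was at 16.4 and 14.8 FPKM in EV and at 12.7 and 15.0 FPKM in ACSS2NLS (log2 change -0.16 ± 0.13). It exceeded its paralog Suv39h2 by 9.29 and 11.7 times in EV and by 10.3 and 10.6 times in ACSS2NLS. Ehmt2, which encodes G9a, was at 12.1 and 12.3 FPKM in EV and at 9.26 and 12.1 FPKM in ACSS2NLS. It was the only one of the 35 measured members whose ACSS2NLS libraries were both below both EV libraries, and ACSS2NLS replicate 2 differed little from EV (log2 change -0.19 ± 0.16, adjusted p = 0.848). Without that library its log2 change was -0.37 (limma-trend, unadjusted p = 0.0462, adjusted p = 0.57), in a fit where 8.63% of all genes had an unadjusted p under 0.05. Without ACSS2NLS replicate 1 it was -0.0145. Its partner Ehmt1 had a log2 change of 0.095 ± 0.14, and the ratio of Ehmt2 to Ehmt1 was 1.78 and 1.74 in EV and 1.35 and 1.48 in ACSS2NLS. Setdb1, which silences retroelements, was at 5.25 and 7.44 FPKM in EV and at 4.95 and 7.90 FPKM in ACSS2NLS, with nearly equal group means (log2 change 0.0030 ± 0.25) and a wide gap inside each group.

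Among the demethylases, the mean was higher for 9 of 11 measured genes, where it was for 53.2% of all genes tested. Their median log2 change was 0.039, against 0.015 for all genes tested. Kdm7a (NM_001033430; chromosome 6, 39136620 to 39206773, minus strand), a Jumonji enzyme that removes methyl groups from lysines 9 and 27, had the largest difference of the 35 members. It was at 2.07 and 1.91 FPKM in EV and at 2.79 and 2.995 FPKM in ACSS2NLS. The libraries of each group lay close together and the groups were apart, with a 1.45-fold higher mean in ACSS2NLS (log2 change 0.38 ± 0.15, 95% interval -0.0033 to 0.77), but it did not pass over all genes (limma-trend, unadjusted p = 0.0514, adjusted p = 0.81). Its unadjusted p was 0.0356 with the replicate number as a block (limma-trend, adjusted p = 0.282) and 0.0287 with limma without the intensity trend (adjusted p = 0.821), where 14.6% and 5.66% of all genes were under 0.05. Leaving out each library in turn moved its log2 change between 0.34 and 0.42.

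Kdm5b, which removes H3K4 methylation, was at 4.72 and 4.03 FPKM in EV and at 5.56 and 4.89 FPKM in ACSS2NLS, with groups that did not overlap (log2 change 0.21 ± 0.15, adjusted p = 0.835). Its paralog Kdm5a was nearly level, with means of 6.24 ± 0.029 FPKM in the EV libraries and 6.44 ± 0.274 FPKM in the ACSS2NLS libraries (SD, n = 2 each). Kdm1a, which encodes LSD1, was the most abundant demethylase, at 15.7 and 15.8 FPKM in EV and at 16.7 and 17.4 FPKM in ACSS2NLS. All 4 values lay close together, and its interval was the narrowest of the members (log2 change 0.11 ± 0.11, 95% interval -0.17 to 0.38). Kdm6b, the inducible demethylase of lysine 27, was under the filter at 0.773 and 0.671 FPKM in EV and at 0.625 and 0.569 FPKM in ACSS2NLS (log2 change -0.11 ± 0.095 with no filter on low values). The remaining demethylases, Kdm2a, Kdm2b, Kdm3a, Kdm3b, Kdm4a, Kdm4b and Kdm4c, had log2 changes from -0.14 for Kdm4c to 0.13 for Kdm4a.

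Counted over all roles, the mean in ACSS2NLS was higher for 25 of 35 members (71.4%, against 53.2% of all genes tested) and lower for 10 (28.6%, against 46.8%). The median log2 change over the members was 0.049. After quantile normalization or centring each library on its median, 21 of 35 were higher. Without ACSS2NLS replicate 2 the count fell to 14, and without ACSS2NLS replicate 1 it was 27. The share of all genes tested that were higher was not counted in these fits. The median log2 change over all genes was -0.0024 after quantile normalization and -0.0158 after centring. It was -0.0209 without ACSS2NLS replicate 2 and 0.0371 without ACSS2NLS replicate 1, against 0.0151 in the main fit. The groups did not overlap upward for 6 members (Eed, Kmt2a, Nsd1, Kdm1a, Kdm5b and Kdm7a), or 17.1% against 19.3% of all genes, and downward for 1 member (Ehmt2), or 2.86% against 18.1%. The upward share was thus near that of all genes. A group of 1 library more easily lies apart from the other. Without EV replicate 1, 8 members lay apart upward (22.9%, against 30.9% of all genes in the same fit) and 3 downward (8.57%, against 28.6%). Without EV replicate 2 these were 16 (45.7%, against 35.4%) and 7 (20%, against 31.4%). Without ACSS2NLS replicate 1 they were 24 (68.6%, against 43.4%) and 2 (5.71%, against 31.6%). Without ACSS2NLS replicate 2 they were 8 (22.9%, against 33.9%) and 16 (45.7%, against 39.4%), the one of these 4 fits with more members apart downward than upward.

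For most members, as for most genes tested, the libraries of a group differed from each other by more than the groups did. The gap between replicates, in at least 1 group, was larger than the difference between groups for 32 of 35 members (91.4%, against 74.9% of all genes tested), and the 3 others were Kdm1a, Kdm5b and Kdm7a. The median size of the gap was 0.18 in EV and 0.22 in ACSS2NLS on the log2 scale, against 0.11 for the difference between groups. Over all genes tested these medians were 0.15, 0.20 and 0.13. A gap between single libraries varies more than a difference between group means, and the count takes the larger of the gaps. Both measures therefore lean toward the gap even where groups do not differ, so they are read only beside the values of all genes. Replicate 2 was the higher library in both groups for 21 members, or 60.0% against 34.9% of all genes tested, and replicate 1 for 5. The members are long transcripts, with a median exon length of 5649 bases against 2508 for all genes tested. Of the 21 members of at least 5000 exon bases, 16 were higher in replicate 2 of both groups, as were 53.2% of all genes of that length. Among the 14 shorter members this held for 5, and for 32.3% of all shorter genes. The replicate 2 libraries were also those with more myeloid and melanoma transcripts in each group, and the part of transcript length and of those cells in the gap was not tested.

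**Figure D3:**
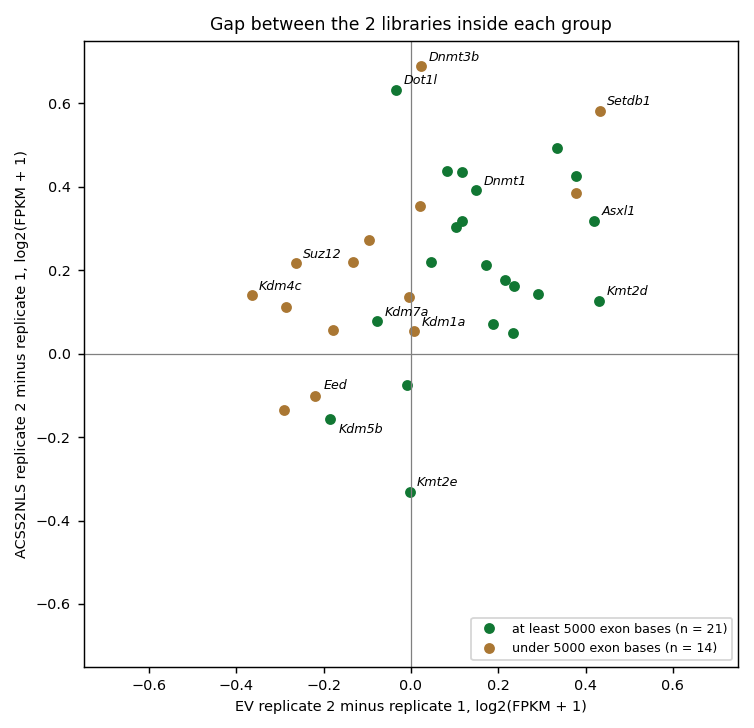
Gap between replicate 2 and replicate 1 of EV (horizontal axis) and of ACSS2NLS (vertical axis) on the log2(FPKM + 1) scale for each of the 35 measured members, coloured by exon length. Of 35 points, 21 lie in the upper right part, where replicate 2 is higher in both groups.

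Ratios between related enzymes inside a library do not depend on its depth. The pairs were chosen after the values were seen, so the ratios here and above are a description, with no test. Of 10 ratios computed, 5 overlapped between the groups and 5 lay apart. Each ratio could equally be written the other way up, so the direction of those apart carries no meaning. Eed, Ehmt2 and Kdm5b, which enter some of them, lay apart on their own. The share over other pairs of genes was not computed, so the count is not read as a result about the members. The ratio of Dnmt1 to Dnmt3a was 6.44 and 6.51 in EV and 5.99 and 5.59 in ACSS2NLS. The ratio of Tet2 to Tet3 was 2.31 and 1.90 in EV and 1.78 and 1.28 in ACSS2NLS.

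Other genes of the same machinery were read from 4 lists. Of 100 listed genes, 88 were measured, and 0 passed over all genes tested. At an unadjusted p under 0.05, 5 were higher and 2 lower (3.1% and 2.87% of all genes tested were), and 42 had a higher and 46 a lower mean (median log2 change -0.0042). Among 24 further Polycomb genes, 3 were higher at that unadjusted p, where 3.1% of all genes were. Mtf2, a partner that brings PRC2 to CpG islands, was at 6.69 and 6.71 FPKM in EV and at 10.5 and 9.54 FPKM in ACSS2NLS. This was a larger difference than that of any core subunit (log2 change 0.52 ± 0.13, limma-trend adjusted p = 0.81). Bmi1 and Pcgf6, which belong to Polycomb repressive complex 1, had log2 changes of 0.44 ± 0.12 and 0.36 ± 0.13.

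Of 13 partners of the KMT2 and SETD1 enzymes, 9 had a higher and 4 a lower mean, where 53.2% of all genes tested were higher. Of these partners, 0 had an unadjusted p under 0.05. The smallest p was that of Paxip1 (log2 change -0.30 ± 0.12), followed by Wdr82 (0.18 ± 0.15) and Cxxc1 (-0.13 ± 0.11). Among 32 other histone methylation enzymes and readers, Mphosph8, a reader of methylated H3K9 in the HUSH silencing complex, was at 3.09 and 3.30 FPKM in EV and at 6.32 and 4.57 FPKM in ACSS2NLS (0.61 ± 0.18, adjusted p = 0.81). Prdm1, which encodes the effector regulator BLIMP1, and the lysine 36 methyltransferase Ash1l had log2 changes of -0.61 ± 0.27 and 0.30 ± 0.15.

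The last list held DNA methylation partners and enzymes of the S-adenosylmethionine cycle, which supplies the methyl groups. Of its 19 genes, 5 were higher and 14 lower, against 53.2% and 46.8% of all genes tested (median log2 change -0.051). Uhrf1, which brings DNMT1 to newly copied DNA, was at 27.8 and 26.9 FPKM in EV and at 20.4 and 23.0 FPKM in ACSS2NLS (-0.32 ± 0.12 on the log2 scale, adjusted p = 0.81), while Dnmt1 itself overlapped between the groups. Hells, a chromatin remodeller needed for DNA methylation, was at 12.5 and 9.66 FPKM in EV and at 16.5 and 15.0 FPKM in ACSS2NLS (0.48 ± 0.16, adjusted p = 0.81). Gadd45a had a log2 change of -0.74 ± 0.28. Uhrf1, Dnmt1, Ezh2 and Suv39h1 are known to rise in dividing cells. Dnmt1 leaned higher in ACSS2NLS (log2 change 0.060), and Ezh2 (-0.067) and Suv39h1 (-0.16) leaned lower, as did Uhrf1. Of 24 proliferation genes, 4 had a higher mean in ACSS2NLS, where 53.2% of all genes tested did. The 24 summed to 1044 and 940 FPKM in EV and to 862 and 899 FPKM in ACSS2NLS. The part of proliferation in the values of Uhrf1, Dnmt1, Ezh2, Suv39h1 and Hells was not tested.

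**Figure D4:**
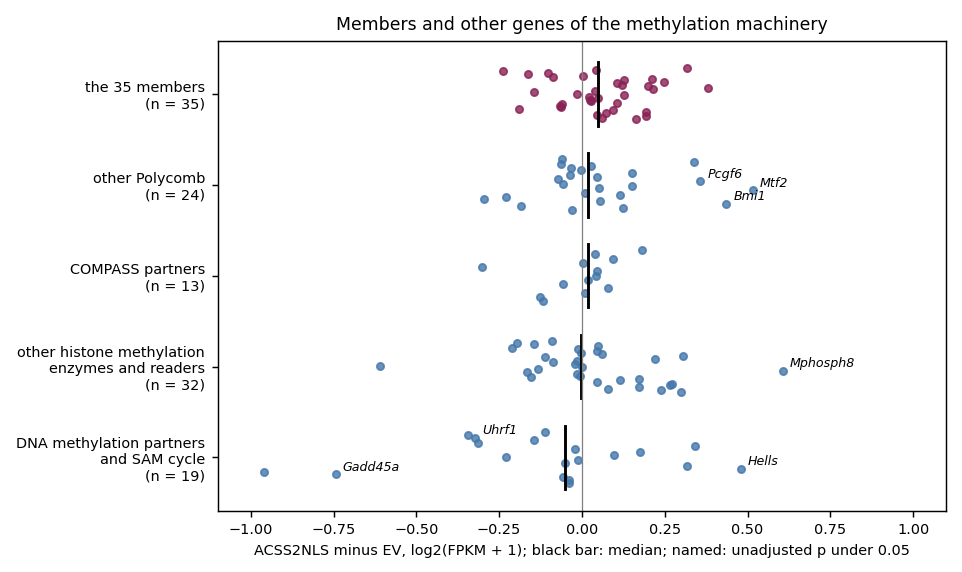
Difference between the ACSS2NLS and EV means on the log2(FPKM + 1) scale (horizontal axis) for the 35 measured members and for 4 lists of other genes of the methylation machinery, with 1 point per gene and a bar at the median. Genes with an unadjusted p under 0.05 are named, and 0 of these are members.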

How the data were processed

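RNA of 4 samples was prepared with RNeasy Plus Micro and sequenced as SMART-Seq v4 libraries, per the labels' protocols. The tools named are STAR 2.5.3a and HOMER and the build mm10, per the submitters' processing notes. Per the file headers, the authors counted tags over RefSeq exons on the sense strand with HOMER, kept 1 transcript per gene and scaled to FPKM, with 3 decimals. Strandedness is not given in the sources examined. Over all isoforms in GENCODE M21, 18 members share exon bases with a gene on the opposite strand and 3 with one on the same strand. The largest opposite-strand share was 3468 bases, in Kdm3b. The deposited columns, named Acss2WT and Acss2OE with replicate numbers, were read as EV and ACSS2NLS. The header names 8 tag directories and the table has 4 library columns, all used.

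Deposited FPKM were transformed to log2(FPKM + 1) for the 9810 genes whose mean reached 1 FPKM. Groups were compared by limma-trend (limma 3.58.1, R 4.3.3) with two-sided, Benjamini-Hochberg adjusted p-values. A log2 change is the ACSS2NLS minus the EV mean, with its SE, and understates the change of low genes. Total tags came from the smallest step of FPKM times length: in genes between 500 and 2000 bases long and at most 50 tags, 100% of the values checked were whole multiples within 0.1 of a step. Tags per member are subject to counting error, and no count test was run. The chi-square per degree of freedom between replicates was 40.1 in EV and 60.7 in ACSS2NLS, so neither pair looked like 1 library deposited again. Separate mice are not stated in the labels, so the p-values reflect the spread between the samples alone, and that spread may be technical. The members and gene lists were chosen with earlier results of these data known. By rule, the text names every member, and the 3 genes of each of the 4 other lists with the smallest unadjusted p. Pseudocounts, filters, scalings, a replicate block, limma without the trend and leaving out each library were tried.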

Additional observations from a re-analysis of the deposited data

How the results depend on the processing

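In no setting tried did a member pass the limma threshold over all genes. Of 265 log2 changes of members under settings with all libraries, 257 kept their direction. The others were under quantile normalization Dnmt3b (-0.0086), Tet2 (-0.037), Setdb1 (-0.031) and Kdm3b (-0.019), and under median centring Setdb1 (-0.028), Kdm2a (-0.0045), Kdm2b (-0.0057) and Kdm3b (-0.0089). With 1 library left out, a group has a lone library that is assumed to vary like the other group, and 14 members, Kdm7a among them, kept their direction in all 4 such fits. The log2 changes of the 21 others ranged over these fits as follows: Asxl1 -0.0473 to 0.37, Dnmt1 -0.14 to 0.26, Dnmt3a -0.0239 to 0.41, Dnmt3b -0.30 to 0.39, Dot1l -0.24 to 0.39, Ehmt1 -0.0151 to 0.20, Ezh1 -0.21 to 0.0826, Ezh2 -0.16 to 0.0221, Jarid2 -0.18 to 0.0572, Kdm2a -0.19 to 0.25, Kdm2b -0.22 to 0.27, Kdm3a -0.0188 to 0.12, Kdm3b -0.0847 to 0.13, Kdm4a -0.0652 to 0.32, Kdm4b -0.15 to 0.12, Kdm4c -0.33 to 0.0379, Kmt2e -0.0395 to 0.29, Setd2 -0.25 to 0.0708, Setdb1 -0.29 to 0.29, Suv39h2 -0.25 to 0.0395, Tet2 -0.10 to 0.19. The median over measured members ranged from -0.030 without ACSS2NLS replicate 2 to 0.14 without ACSS2NLS replicate 1. Members apart upward numbered 8 to 24 and downward 2 to 16 in these fits, against 30.9% to 43.4% and 28.6% to 39.4% of all genes, and genes passing downward over all genes 0 to 9 (9 without EV replicate 1). With no filter on low values 1 gene passed upward over all genes and 2 members lay apart downward (5.13%, against 13.7% of all genes), and when the minimum mean was raised to 5 FPKM, which left 20 members, 2 lay apart upward (10%, against 17.2%). Whether the groups lay apart was not counted under quantile normalization or median centring. Fewer or more genes enter under the 2 filters, and for the rest the cause was not tested.

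With the replicate number as a block, 229 genes passed upward and 172 downward over all genes, against 2 and 0 without it, and 0 members did. Deviations of same-numbered libraries from their group means had a correlation of 0.583 across 9810 genes, which are not independent replicates. The labels do not say that a number marks a shared batch or animal. Levels under 1 FPKM, as in Tet1 with 12 tags in EV replicate 1, limit what can be said of the 4 lowest members.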
